A study of Arabidopsis thaliana with 4 samples.

Results

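The genes described here carry at least 1 upstream AUG (uAUG) in the 5' leader of their mRNA. They were taken from the study's list of uAUGs per gene, of which 1999 genes could be read, all of them on chromosome 1, and 599 of these are listed with 1 or more uAUGs. Through the annotation of the array, 322 probe sets were assigned to 319 of the 599 genes, and 171 of these probe sets, for 170 genes, were among the tested ones, which are those with the highest mean log2 signal (a geometric mean of at least 327) of 22746 on the array without its controls. The other 151 lay below this filter and were not tested. By number, 80 of the 171 probe sets belong to genes with 1 uAUG, 41 to genes with 2 and 50 to genes with 3 or more, and a further 383 tested probe sets belong to listed genes without a uAUG. A probe set is the group of oligonucleotides that reads a transcript on the Affymetrix ATH1 array. The list gives whether each uAUG has a stop codon in its frame before the main start codon. In 136 of the 171 probe sets all listed uAUG frames end inside the leader, and in 35 at least 1 frame runs on into the main coding sequence.

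Transcript levels of these genes were measured in total RNA of Arabidopsis thaliana. The eif3h group holds the eif3h-1 mutant, a single T-DNA insertion allele that leaves a truncated eIF3h protein without its carboxy terminus, and the WT group holds wild-type seedlings. Both were aerial parts of seedlings grown for 10 days on sucrose-containing agar under continuous light, and each genotype has 2 arrays, 1 from each of 2 RNA preparations made on different days (repeat 1 and repeat 2). A pool of whole shoots was used, so that fewer cells of a type and less RNA per cell cannot be told apart, and a change of total RNA does not say how well an mRNA was translated.

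A scanning ribosome can start at a uAUG before it reaches the main start codon. Where the frame of the uAUG ends in the leader, the ribosome translates a short upstream open reading frame (uORF) and must resume scanning to reach the main coding sequence, while a frame that runs on into the main coding sequence carries the ribosome past the main start codon. Such uORFs lower the translation of many plant mRNAs, and some of them also expose the mRNA to nonsense-mediated decay, the pathway that removes mRNAs with an early stop codon. The protein eIF3h is a subunit of eIF3, the initiation factor with many subunits that helps the small ribosomal subunit to bind an mRNA and to scan its leader.

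The median signal of an array was 209 and 221 in the eif3h mutant and 201 and 218 in the wild type, on a linear scale with an equal trimmed mean of 500.0 on all arrays. The probe set of eIF3h itself, At1g10840, read 245 and 432 in the eif3h mutant and 1363 and 1020.5 in the wild type (log2 fold change -1.86, adjusted p 0.00707). Of the fixed shoot markers, RCA (Rubisco activase) had a named probe set, at 28004.5 and 50782 in the eif3h mutant and 30586 and 58204 in the wild type. Of the fixed root hair markers, EXPA7 and EXPA18 had one, and they lay below the filter, at 78.1 to 217 in the eif3h mutant and 61.8 to 187 in the wild type. The part of root tissue in the results was not tested.

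Transcripts of the genes with uAUGs changed in both directions, and most did not pass the test. Of the 171 probe sets, 13 rose and 15 fell in the eif3h mutant, and 143 did not pass (limma with the repeat as a block, adjusted p under 0.05 over all tested probe sets). Thus 16.4% of the genes with uAUGs were called, beside 18.2% of all tested probe sets, 8.49% up and 9.68% down. Of the 383 probe sets of genes without a uAUG, 39 rose and 34 fell, or 19.1%. The share among the genes with uAUGs therefore lay near the background. The median log2 fold change was 0.03 over the genes with uAUGs (0.02 in repeat 1 and 0.06 in repeat 2), 0.05 over the genes without and 0.03 over all probe sets. The spread was also alike, with an interquartile range of 0.62 over the genes with uAUGs, 0.66 over those without and 0.62 over all.

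A change in total RNA was small for most genes with uAUGs. The log2 fold change lay within 0.5 of 0 for 124 of the 171 probe sets (72.5%), beside 70.5% of all tested ones. Both repeats moved the same way for 130 (76.0%), beside 74.7% of all. Both eif3h arrays lay above both wild-type arrays for 51 and below both for 41, together 53.8%, where 52.3% of all probe sets had no overlap. More than 2-fold differences in both repeats were rare, with 4 probe sets up and 4 down, against 3.79% of all probe sets, 1.34% up and 2.46% down. With 2 arrays against 2, an exact two-sided permutation test of a single gene that ignores the repeats cannot go below p = 0.333. Without the repeat as a block 1 gene rose and 1 fell, where 0.917% of all probe sets were called, 0.159% up and 0.759% down.

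The changes in transcript level showed no steady trend with the number of uAUGs. Among genes with 1 uAUG, 7 probe sets rose and 5 fell (15.0% called), among those with 2 uAUGs 2 rose and 5 fell (17.1%), and among those with 3 or more 4 rose and 5 fell (18.0%). The genes without a uAUG, at 19.1%, had the highest share. The median log2 fold change was 0.05 without a uAUG, 0.04 with 1, 0.01 with 2 and 0.04 with 3 or more. The repeats gave medians of -0.05 (repeat 1) and 0.13 (repeat 2) for genes with 1 uAUG, so that the 4 classes lie closer together than the 2 repeats of this class.

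**Figure D1:**
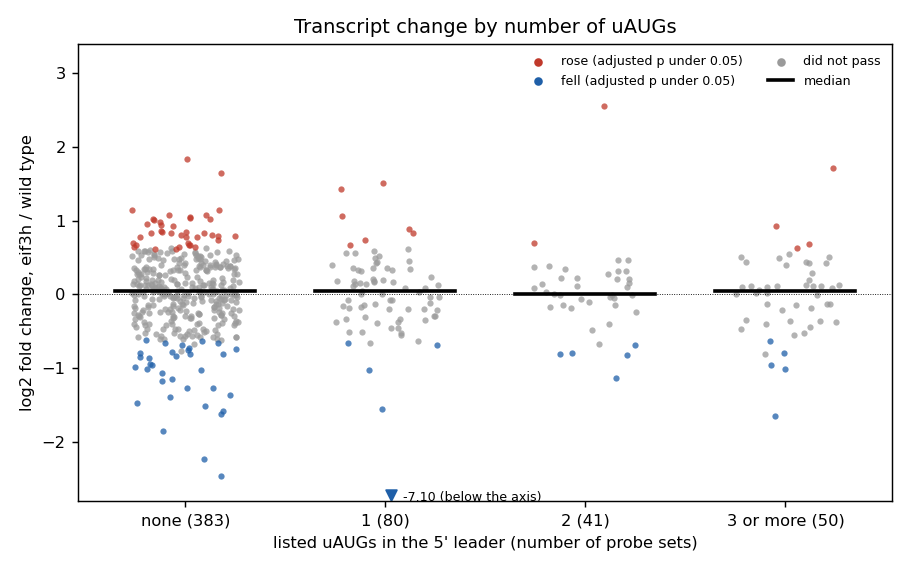
Log2 fold change of eif3h over wild type (vertical axis) for each tested probe set of a listed gene, by number of uAUGs (horizontal axis), with bars at the class medians. The medians lie between 0.01 and 0.05 in all 4 classes, and 1 probe set at -7.10 lies below the axis.

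The mean log2 ratio of the genes with uAUGs was below that of the genes without by 0.02 in repeat 1 and 0.05 in repeat 2 (-0.04 ± 0.02, SD, n = 2 repeats). This difference rested on 1 gene with 1 uAUG, ECS1, whose log2 fold change was -7.10. Without ECS1 the difference was 0.02 in repeat 1 and -0.01 in repeat 2, which is within the spread of the repeats.

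Among the genes whose uAUG frame runs on into the main coding sequence, more transcripts fell than rose. Of the 35 probe sets of this type 8 fell and 2 rose in the eif3h mutant, which is 22.9% down and 5.71% up, beside 9.68% down and 8.49% up over all probe sets. Of the 136 probe sets whose uAUG frames all end in the leader 7 fell and 11 rose, 5.15% down and 8.09% up. The median log2 fold change was -0.07 in the type that runs on (-0.12 in each repeat) and 0.07 in the type that ends in the leader (0.07 and 0.12). The mean log2 ratio was lower in the type that runs on by 0.24 in repeat 1 and 0.21 in repeat 2 (-0.22 ± 0.02, SD, n = 2 repeats), and without ECS1 the difference was -0.28 ± 0.02. Against the genes without a uAUG it was -0.22 ± 0.0066. These SDs are of the 2 repeats over the same genes and leave out the spread between genes. Of the 35 probe sets 14 lay above 0 and 21 below, with an interquartile range of 0.70. The difference of medians from the genes without a uAUG was -0.12. No test was made between the types, since genes are not replicates and the list is a part of the study's table. Without the repeat as a block no probe set of the type that runs on passed.

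**Figure D2:**
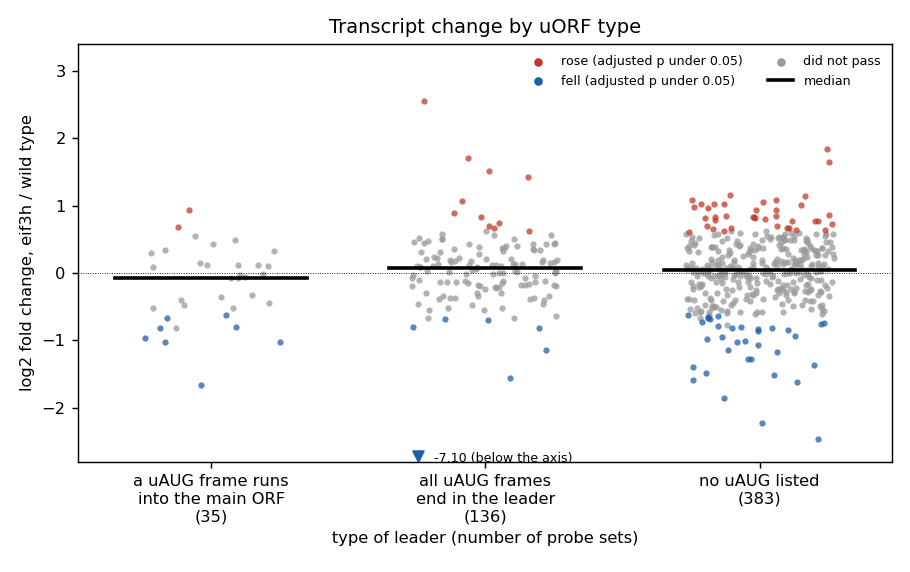
Log2 fold change of eif3h over wild type (vertical axis) for each tested probe set, by type of leader (horizontal axis), with bars at the medians. In the type whose frame runs on, 8 of 35 probe sets fell and 2 rose, and in the type whose frames all end in the leader 7 of 136 fell and 11 rose.

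Most of the called changes in the type that runs on belonged to genes with 3 or more uAUGs. In these 17 probe sets 5 fell, 2 rose and 7 lay within 0.5 of 0. The median log2 fold change was -0.35, but the signs were nearly evenly split, with 8 above and 9 below 0, and the median of the log2 ratios was 0.0043 in repeat 1 and -0.25 in repeat 2. The direction was the same in both repeats for 16 of the 17. Of the genes with 1 uAUG whose frame runs on, 2 of 10 fell and none rose, with a median of -0.05 (-0.17 in repeat 1 and 0.0036 in repeat 2). Of those with 2 uAUGs 1 of 8 fell and none rose, with a median of -0.06 (-0.20 and -0.17). The order of the 3 medians thus differed between the repeats. Among genes with 3 or more uAUGs that all end in the leader, none of 33 fell and 2 rose, with a median of 0.06. All these groups are small, and over all tested probe sets 9.68% fell and 8.49% rose.

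The gene that fell most in this group was At1g13650, with 3 or more uAUGs. Its signal was 303 and 117 in the eif3h mutant, against 1038 and 339 in the wild type. The wild-type signal of repeat 2 was thus little above the eif3h signal of repeat 1, but within a repeat the eif3h signal was about as far below the wild type each time. The log2 fold change was -1.65 ± 0.18 (SE) with an adjusted p of 0.00209, a 3.15-fold lower level.

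At1g22630, with 3 or more uAUGs, had 548 and 349 in the eif3h mutant and 1097 and 714 in the wild type, a change of -1.02 (adjusted p 0.00983). The level in repeat 2 was lower in both genotypes, and the ratio was nearly equal in both repeats. At1g05140 had 1142 and 1146 in the eif3h mutant and 2329 and 2115 in the wild type (-0.96, adjusted p 0.0124). At1g15260 had 1045 and 743 in the eif3h mutant and 1817.5 and 1284.5 in the wild type (-0.79, adjusted p 0.0216). In all 3 genes both eif3h arrays lay below both wild-type arrays. At1g04350 is outside the naming rule and completes the 5 that fell, at 1294 and 1527 in the eif3h mutant and 1908 and 2463 in the wild type (-0.63, adjusted p 0.0455).

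Genes with fewer uAUGs and a frame that runs on added 3 that fell. At1g16080, with 1 uAUG, had 1355 and 1647.5 in the eif3h mutant and 2491 and 3700.3 in the wild type (-1.02, adjusted p 0.0110). THX (At1g50320), which encodes thioredoxin x, a chloroplast protein that reduces disulfide bonds, had 2799 and 3577 in the eif3h mutant and 4119 and 6108 in the wild type (-0.66, adjusted p 0.0396). Both genes had no overlap between the genotypes. At1g11820, with 2 uAUGs, had 586 and 577 in the eif3h mutant and 1084 and 975 in the wild type (-0.82, adjusted p 0.0201).

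Both genes of this type that rose have 3 or more uAUGs. At1g22790 had 659 and 642 in the eif3h mutant and 435 and 266 in the wild type, a change of 0.94 (adjusted p 0.0245) that was larger in repeat 2 than in repeat 1. At1g07040 had 709 and 905 in the eif3h mutant and 443 and 556 in the wild type, 0.69 (adjusted p 0.0337), with nearly the same ratio in both repeats. The genotypes did not overlap in either gene.

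Among genes with 1 uAUG that ends in the leader, transcripts of a mitochondrial ribosomal protein and of a decay factor rose. HLL (At1g17560, HUELLENLOS) encodes a mitochondrial ribosomal protein needed for ovule growth. Its signal was 657 and 863 in the eif3h mutant, against 256 and 305 in the wild type. Both eif3h arrays stood well above both wild-type arrays, and the log2 fold change was 1.43 ± 0.17 (SE), 2.70-fold, with an adjusted p of 0.00311. UPF3 (At1g33980) encodes a factor of nonsense-mediated decay. It read 985 and 1336 in the eif3h mutant and 537 and 716 in the wild type. The ratio was nearly the same in both repeats, with a log2 fold change of 0.89 ± 0.17 (SE), 1.85-fold, and an adjusted p of 0.0155.

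The largest rise with 1 uAUG was that of At1g05210, at 603.5 and 654 in the eif3h mutant and 264 and 182.5 in the wild type (1.52 ± 0.21, SE, adjusted p 0.00507). At1g04990, which the study's gene list describes as a putative zinc finger protein, had 558 and 512 in the eif3h mutant and 250.3 and 261 in the wild type (1.06 ± 0.18, SE, adjusted p 0.00903). In both genes every eif3h array was above every wild-type array. A further 3 genes with 1 uAUG rose by less than 2-fold and fall outside the naming rule, At1g50740 (0.84, adjusted p 0.0192), At1g51610 (0.74, adjusted p 0.0338) and At1g16740 (0.68, adjusted p 0.0398).

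BGLU40 (At1g26560), a beta-glucosidase of the family that removes sugars from small molecules and cell wall fragments, fell most among the described genes with 1 uAUG. Its signal was 474.5 and 556 in the eif3h mutant, against 1810.2 and 1268 in the wild type. The genotypes were far apart, more so in repeat 1, and the log2 fold change was -1.56 ± 0.22 (SE) with an adjusted p of 0.00541, a 2.95-fold lower level. At1g16170 had 502 and 552 in the eif3h mutant and 721.5 and 985 in the wild type (-0.68, adjusted p 0.0401).

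**Figure D3:**
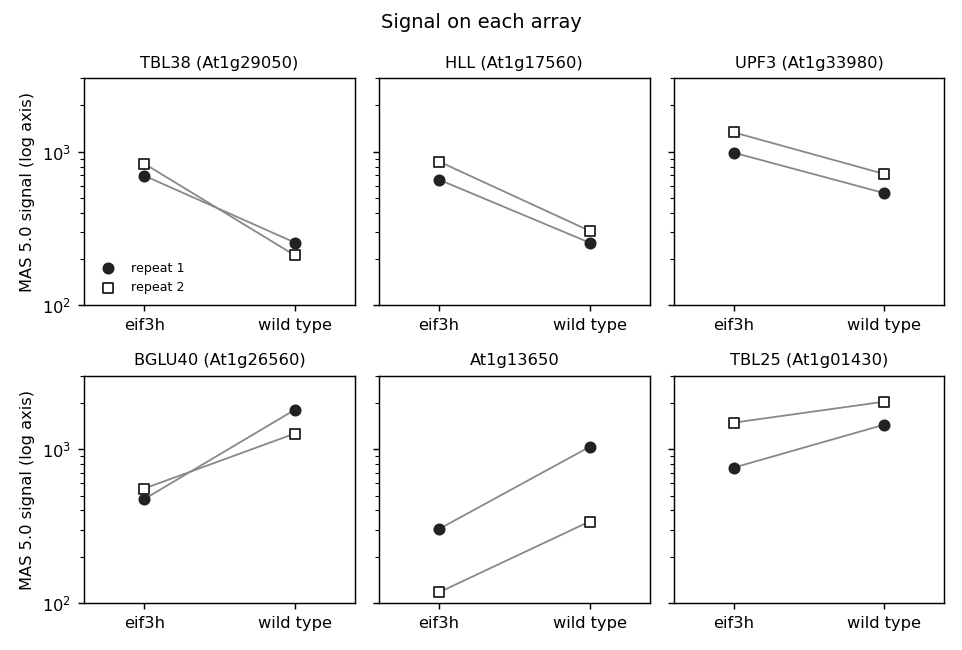
Signal of 6 genes with uAUGs on each of the 4 arrays (MAS 5.0 signal, log axis), eif3h left of wild type, with lines joining the arrays of a repeat. TBL38, HLL and UPF3 were higher in eif3h in both repeats, and BGLU40, At1g13650 and TBL25 were lower, with overlap between genotypes in TBL25.

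With 2 uAUGs, 4 of the 5 genes that fell have frames that all end in the leader. At1g21920, described in the study's gene list as a putative phosphatidylinositol-phosphate kinase, had 663 and 945 in the eif3h mutant and 1789.6 and 1689 in the wild type. It was lower on both eif3h arrays (-1.13 ± 0.20, SE, adjusted p 0.0117). At1g01540 had 617 and 554.5 in the eif3h mutant and 1085 and 966 in the wild type (-0.81, adjusted p 0.0204). At1g18060 had 1990 and 3073 in the eif3h mutant and 4204 and 4414 in the wild type (-0.80, adjusted p 0.0336), a change that was larger in repeat 1.

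TBL25 (At1g01430) belongs to the TRICHOME BIREFRINGENCE-LIKE family, many members of which acetylate cell wall polysaccharides. It read 761 and 1493 in the eif3h mutant and 1449 and 2045 in the wild type. The groups overlapped, since repeat 2 was the higher in both genotypes, and the log2 fold change within repeats was -0.69 (adjusted p 0.0456). At1g20070 rose, at 709 and 266.5 in the eif3h mutant and 393 and 181.5 in the wild type, again with overlap and with both repeats in the same direction (0.70, adjusted p 0.0364). Its log2 ratio was 0.85 in repeat 1 and 0.55 in repeat 2. Without the eif3h array of repeat 1, in a fit without the repeat term, its log2 fold change was -0.0031. TBL25 and At1g20070 were the 2 of the 28 called probe sets whose genotypes overlapped.

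TBL38 (At1g29050), a member of the same family as TBL25, rose most among the described genes with 3 or more uAUGs. It read 698 and 836 in the eif3h mutant, against 256 and 211 in the wild type. Each eif3h array lay far above both wild-type arrays. The log2 fold change was 1.72 ± 0.20 (SE), 3.28-fold, with an adjusted p of 0.00268, and it was the described gene that also passed without the repeat as a block (adjusted p 0.0398). At1g26850, the other gene of this class that rose with all frames ending in the leader, was among the brighter ones, at 4688.5 and 4869 in the eif3h mutant and 3153 and 3028.5 in the wild type (0.63, adjusted p 0.0444).

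**Figure D4:**
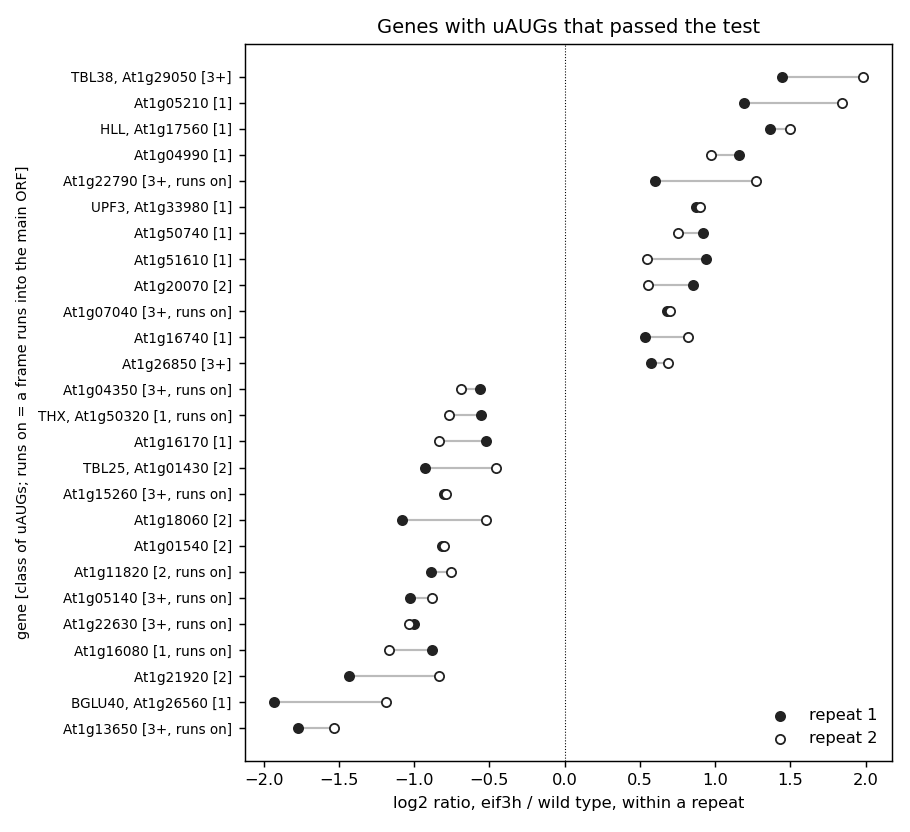
Log2 ratio of eif3h over wild type within repeat 1 and within repeat 2 (horizontal axis) for the 26 described genes with uAUGs that passed the test, each with its number of uAUGs and a mark where a frame runs on into the main ORF. All 26 lie on the same side of 0 in both repeats, 12 above and 14 below, which passing the test favours.

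All 28 called probe sets moved the same way in both repeats. The test favours this, since its error comes in part from the difference between the repeats. Of the 28, 17 changed by less than 2-fold. Nearly all of the 26 that are described lost their call when 1 array was left out. Those fits also had no term for the repeat, so the loss cannot be assigned to a single array. Of the probe sets that did not pass, 19 had a log2 fold change beyond 0.5 in either direction, so that changes of this size were not detectable for each gene with 2 arrays a group.

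Of the 22 genes with uAUGs that carry a gene name and are described singly, 3 rose (HLL, UPF3, TBL38), 3 fell (BGLU40, THX, TBL25) and 16 did not pass. Among the 16, SAT32 (At1g27760), named for salt tolerance, had 422 and 362 in the eif3h mutant and 543 and 579 in the wild type (-0.52, adjusted p 0.0834). IAA18 (At1g51950), a repressor of the auxin response, had 756 and 1049 in the eif3h mutant and 1144 and 1305 in the wild type (-0.46, adjusted p 0.114). In both genes the eif3h arrays lay below both wild-type arrays. LSMT-L (At1g14030), a chloroplast protein methyltransferase, was at 835 and 616 in the eif3h mutant and 892.5 and 1227 in the wild type (-0.54, adjusted p 0.144), with nearly all of the difference in repeat 2.

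Genes of protein synthesis and folding among the 16 had values on both sides of 0. FUG1 (At1g17220), an initiation factor of chloroplast translation, had 4507 and 5029.7 in the eif3h mutant and 5131 and 7094 in the wild type (-0.34, adjusted p 0.216). ALATS (At1g50200), the alanyl-tRNA synthetase, had 2958 and 2611 in the eif3h mutant and 2456 and 3042 in the wild type (0.02, adjusted p 0.943), with the repeats in opposite directions. PDF1A (At1g15390), a peptide deformylase, was at 0.14 (adjusted p 0.594), and PDIL5-1 (At1g07960), related to protein disulfide isomerases, was at 0.0034 (adjusted p 0.990).

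For signalling and RNA turnover, SKP2A (At1g21410), an F-box protein that acts in the cell cycle, had a log2 fold change of -0.30 (adjusted p 0.251). The mitogen-activated protein kinase ATMPK8 (At1g18150) was at -0.04 (adjusted p 0.934), and the calmodulin-binding family member IQD28 (At1g14380) at 0.00095 (adjusted p 0.998). LSM1A (At1g19120), of the complex that promotes mRNA decapping, was at 0.08 (adjusted p 0.773). In LSM1A, IQD28 and ATMPK8 the repeats moved in opposite directions. AtNCL (At1g53210), a sodium/calcium exchanger-like protein, was the 1 gene found for the fixed list of membrane transport, at 5261 and 4939 in the eif3h mutant and 6022.5 and 5509 in the wild type (-0.18, adjusted p 0.497). The log2 fold change of UP9 (At1g29120) was -0.38 (adjusted p 0.298), with nearly no difference in repeat 1. SIRB (At1g50170), which inserts iron in siroheme synthesis, was at -0.11 (adjusted p 0.674). PS1 (At1g08700), a presenilin, was at 0.05 (adjusted p 0.865), and ATKDSA2 (At1g16340), of the synthesis of a sugar acid of pectin, was at 0.14 (adjusted p 0.605).

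More of the brighter genes with uAUGs fell than rose, and more of the dimmer ones rose than fell. Among the 5000 brightest probe sets the genes with uAUGs had 5 that rose and 13 that fell of 87, with a median log2 fold change of -0.11, where all 5000 had 481 and 535 with a median of 0.03 and the genes without a uAUG had 28 and 24 of 231 with a median of 0.04. Among the other 3831 tested probe sets the genes with uAUGs had 8 that rose and 2 that fell of 84, with a median of 0.13, where all 3831 had 269 and 320 with a median of 0.04 and the genes without a uAUG had 11 and 10 of 152 with a median of 0.05. The type whose frame runs on had none risen and 6 fallen of 18 in the brighter part (median -0.42) and 2 risen and 2 fallen of 17 in the dimmer part (median 0.11). The type whose frames end in the leader had 5 risen and 7 fallen of 69 in the brighter part (median -0.0082) and 6 risen and none fallen of 67 in the dimmer part (median 0.13). These calls are those of the fit of all tested probe sets, the split was chosen with the values known, and no test was made of it. The filter used the mean of all 4 arrays, so a dimmer probe set could pass it through a single genotype. Among those that rose, TBL38, HLL, At1g05210, At1g04990 and At1g51610 had both wild-type signals below 327. At1g13650, which fell, had both eif3h signals below 327. The counts of the dimmer part therefore depend on the filter.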

How the data were processed

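The values deposited are a linear intensity per probe set, the signal of the Affymetrix software MAS 5.0, with which the authors corrected the background and brought all arrays to an equal trimmed mean. Detection calls were not used here. Of 22746 probe sets (64 controls left out), the 8831 with the highest mean log2 signal (geometric mean at least 327) were fitted in limma 3.58.1 (R 4.3.3, lmFit and eBayes) on log2 signal, with terms for repeat and genotype, 1 residual and 6.58 prior degrees of freedom, and Benjamini-Hochberg adjustment. The methods compute ratios within a repeat, so the repeat number was the block. The changes from repeat 1 to repeat 2 in the 2 genotypes had a correlation of 0.530 across probe sets. The fit was tested on simulated data. Summaries were made in Python 3.11.15 with numpy 2.4.6, pandas 2.3.3 and matplotlib 3.10.9.

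Probe sets were named by the array's annotation, in which 13513 have 1 symbol, 503 have several and 8730 have none. Of those with 1 symbol, 13484 had a locus, from the RefSeq table or from the locus code in the annotation itself. The plan had been to take names from the study's gene list of changed genes as well. Since that list holds genes picked for their change, such names became the alternative, apart from eIF3h. Of the listed genes named by it alone, 7 with uAUGs (1 rose, 4 fell) and 30 without (6 rose, 12 fell) would have been tested. Of the tested members, 1 may cross-hybridize with other transcripts, and At1g09660 is read by 2 probe sets.

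Members and lists were chosen with earlier results of these data known. Genes named in the text are, per number of uAUGs, up to 4 that rose most and up to 4 that fell most among the called genes with both repeats in the same direction, and up to 2 members of each function list. The other called genes and the members with a gene name were added after their values had been seen. The 8 members of other gene lists of the study enter the counts and are not described, apart from ECS1. Of 7 function lists filled by key words, 6 found no member. The key words were searched in gene symbols and synonyms, since the reference holds few gene descriptions. Members of these functions, such as ATMPK8 and SKP2A, were therefore missed. The number of arrays limits the precision. Alternatives were no block, quantile normalization, median centring, no filter, a filter to the 5000 brightest, adding 50 to each signal, a variance prior that follows intensity, each array left out in turn, no cross-hybridizing probe sets and, chosen after seeing the data, names from the list of changed genes and leaving out ECS1. The fits with an array left out had no term for the repeat. Polysomal arrays were not analysed here.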

Additional observations from a re-analysis of the deposited data

How the results depend on the processing

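Of the 26 described genes that passed, all 26 kept their call with an offset of 50, with an intensity trend, without probe sets that may cross-hybridize and with names also from the list of changed genes, 22 with quantile normalization, 19 with median centring, 16 of the 16 still tested among the 5000 brightest, 1 (TBL38) without the replicate block and 0 without the filter on dim probe sets. The fits with 1 array left out also had no repeat term, and nearly all of the calls were lost in them. Thus nearly all calls were lost without the repeat term and all without the filter. The prior degrees of freedom changed as well, from 6.58 to 4.22 without the block and to 1.60 without the filter. The cause of each loss was not tested.

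Without the replicate block the pairing of genotypes within repeats is not used, and the counts were 0 risen and 4 fallen without a uAUG, 0 and 1 with 1 uAUG, 0 and 0 with 2, 1 and 0 with 3 or more, 1 and 1 over all genes with uAUGs, 1 and 1 where all frames end in the leader and 0 and 0 where a frame runs on. Without the filter all these counts were 0, and the median where a frame runs on was -0.054. For a separate fit of the 5000 brightest no share over all its probe sets was taken, so its counts have no background beside them. In that fit 8 genes with uAUGs rose and 17 fell, 1 and 6 of them with 2 uAUGs. With 3 or more uAUGs the counts were 2 and 5, and where a frame runs on 0 and 7. The medians were then -0.12 with 1 uAUG, -0.051 with 2, -0.11 over all genes with uAUGs, -0.0082 where all frames end in the leader and -0.42 where a frame runs on, and the difference of mean log2 ratio between genes with and without uAUGs was -0.17. Over all tested probe sets, leaving out ECS1 made that difference 0.0031. Among the 5000 brightest, the mean log2 ratio without ECS1 was -0.087 for genes with uAUGs. For genes without a uAUG it was 0.0066 there. Genes with 1 uAUG that fell numbered 3 with quantile normalization and 3 with median centring, and genes with 2 uAUGs that rose numbered 1 with median centring. With names also from the list of changed genes, the median where a frame runs on was -0.19, and function lists gave 2 calls.

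When 1 array was left out, the fit had no repeat term and so dropped the pairing as well. Few or no genes of each class passed then. The medians ran from 0.042 to 0.079 without a uAUG, from -0.016 to 0.12 with 1, from -0.030 to 0.077 with 2, from -0.060 to 0.061 with 3 or more, from 0.033 to 0.060 over all genes with uAUGs, from 0.037 to 0.091 where all frames end in the leader and from -0.15 to -0.076 where a frame runs on. The difference of mean log2 ratio ran from -0.070 to -0.0066.

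Log2 fold changes that changed sign were mostly near 0 with all arrays. PDIL5-1 (At1g07960) was at -0.0076 with quantile normalization and ran from -0.11 to 0.12 with 1 array left out. IQD28 (At1g14380) was at -0.0049 with quantile normalization and at -0.0014 with median centring, and ran from -0.15 to 0.15. With 1 array left out, ATMPK8 (At1g18150) ran from -0.29 to 0.21, ALATS (At1g50200) from -0.13 to 0.18, LSM1A (At1g19120) from -0.23 to 0.39, SIRB (At1g50170) from -0.28 to 0.054, PDF1A (At1g15390) from -0.018 to 0.31 and PS1 (At1g08700) from -0.0051 to 0.10. The exception in size was At1g20070, called at 0.70, which ran from -0.0031 (without eif3h replicate 1) to 1.41. These fits did not pair the arrays, and its log2 ratio within repeats was 0.85 and 0.55.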

Other observations

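The 151 probe sets of genes with uAUGs that lay below the filter were not tested. Of these, 52 were higher in eif3h in both repeats, 44 were lower in both and 55 moved in opposite directions. The same counts were not made over all probe sets below the filter, so these have no background beside them.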
